A study of Mus musculus with 4 samples.

Results

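The 39 Hox genes of the mouse lie in 4 clusters, HoxA on chromosome 6, HoxB on chromosome 11, HoxC on chromosome 15 and HoxD on chromosome 2. They were examined in a list of accessible chromatin regions from naive CD4 T cells, which are helper T cells at rest before their first contact with antigen. The members were the protein-coding genes whose symbol is Hoxa, Hoxb, Hoxc or Hoxd followed by a number, 39 of 21887 protein-coding genes on the assembled chromosomes. The regions were those in these genes, within 1 kb of a gene end, or anywhere in a cluster with 50 kb on either side, 24 of 64525 regions in the whole list. ATAC-seq marks open chromatin with a transposase, an enzyme that inserts adapters where nucleosomes leave the DNA free. The cells came from spleen and a second source labelled pLN, with 2 libraries from Ddx55 knockout mice and 2 from wild-type mice. Ddx55 encodes an RNA helicase of ribosome assembly; the sources used here do not give the allele, the cell types that lack the gene, the strain, the age of the animals or whether the libraries came from separate animals. The list is a single set of positions for all 4 libraries together, on mouse build mm10, with no count, score or genotype. Every value below therefore describes both genotypes jointly, the comparison of Ddx55 knockout with wild type was not analysed here, depth is unknown, and no error over libraries can be given. A gene without a region is one for which the list holds none, which is not a measurement of closed chromatin.

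Hox genes encode homeodomain transcription factors that give cells their position along the body axis of the embryo. Within a cluster the genes stand in the order in which they act, with the low numbers (anterior) at one side and the high numbers (posterior) at the other, and genes of the same number in different clusters, called paralogues, descend from one ancestor. Polycomb complexes keep Hox genes silent in cells that do not use them, and the methyltransferase Kmt2a (MLL1) keeps them active in cells that do. In blood formation, Hoxa and Hoxb genes are used in stem and progenitor cells and are turned down as cells mature.

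Most Hox genes had no accessible region. A region lay within 1 kb of a gene end for 9 of the 39 genes (23.1%), and 52.6% of all protein-coding genes had one. A further 4 genes had a region only inside the gene, away from its ends, as did 15.0% of all protein-coding genes. Counting either position, 13 of the 39 had a region (33.3%), and 67.6% of all protein-coding genes did. The other 26 Hox genes (66.7%) had neither, beside 32.4% of all. The median Hox gene had 0 regions in the gene and the 1 kb beyond each end, and the median protein-coding gene had 1. Hox genes are short, with a median length of 3740 bp; among the 14013 protein-coding genes between 1784 and 44009 bp, the range of the Hox genes, 57.2% had a region at an end. That set has a median length of 13100 bp and is not matched to the Hox genes for length. These are descriptions of one pooled list without a test. The count at gene ends depended on the window: it was 5 of 39 with 500 bp on either side of an end (48.8% of all protein-coding genes) and 16 of 39 with 2 kb (57.8% of all).

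**Figure D1:**
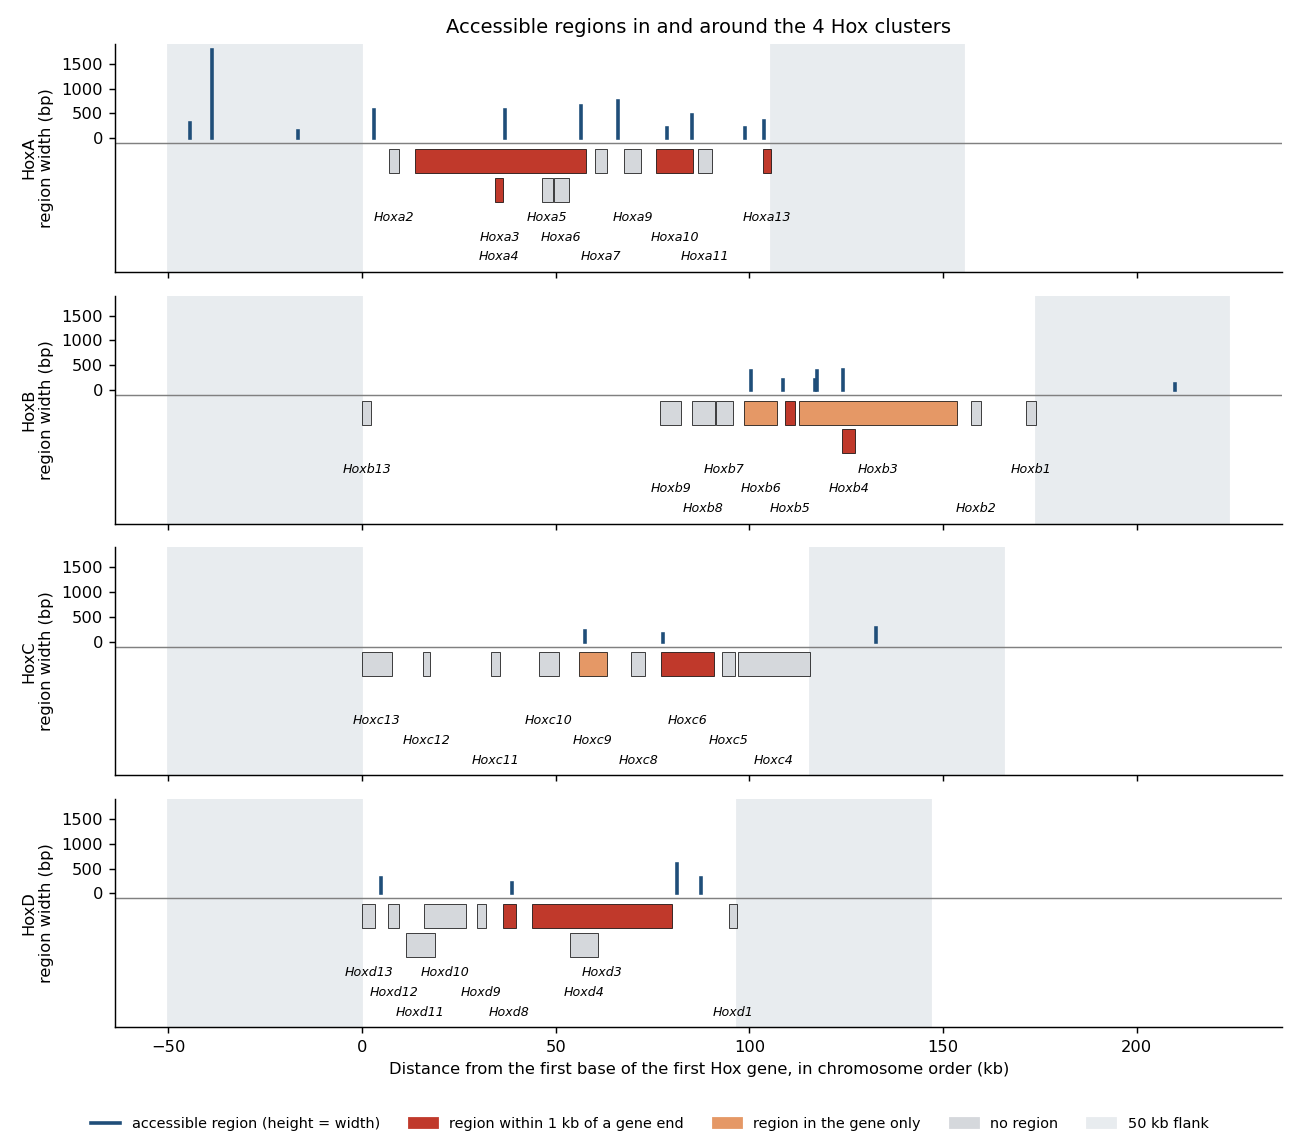
Map of the 4 Hox clusters, with distance in kb from the first base of the first Hox gene on the x axis; boxes are genes (a gene that overlaps a longer one is drawn a row lower), vertical bars are accessible regions with height equal to their width in bp, and shading marks the 50 kb flanks; 1 gene is not drawn. HoxA holds 8 regions spread over its whole length, HoxB 5 in its middle, HoxC 2 and HoxD 4.

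Among the Hox starts listed in the source used here, no promoter held a region. RefSeq start sites on GRCm38.p6, the assembly that mm10 names, were listed for 22 of the 39 genes, with 24 start sites in all. A promoter was taken as the 250 bases before and 50 bases after the start. None of the 24 Hox promoters was overlapped by a region, and 46.8% of the 21263 listed promoters of protein-coding genes were. Within 1 kb of the start, 4 of the 24 Hox starts had a region (16.7%), and 52.5% of all starts did. The 4 starts belong to Hoxa3, Hoxa10 (both of its starts) and Hoxb4, and in each case the region lay on the transcribed side of the start. It began 85 bp past the upstream start of Hoxa10, 136 bp past that of Hoxb4, 679 bp past the second start of Hoxa10 and 921 bp past that of Hoxa3. The remaining 17 Hox genes have no listed start and were not used here. Among them are Hoxa4, with a region 202 bp beyond its higher-coordinate end, and Hoxb5, with one 295 bp before its lower-coordinate end. Their own strands are not listed. Every Hoxa gene with a listed strand is on the minus strand, and every such Hoxb gene on the plus strand. If Hoxa4 and Hoxb5 share these strands and start at those gene ends, both regions lie before the start. The Hoxa4 region would then overlap the 250 bases before its start, and the Hoxb5 region would not. Without a listed start this was not assessed further. The result therefore does not cover all Hox promoters.

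The upstream sequences of 4 Hox starts follow, with the letters of each CpG dinucleotide in capitals. The Hox starts with the fewest CpG, 4 in the 300-base promoter window, are not among them. CpG-rich promoters are common at housekeeping and developmental genes. They are the 250 bases before the start, 5′ to 3′ on the strand of the gene, from RefSeq on GRCm38.p6. The 2 genes whose starts lay nearest to a region are Hoxa10 (chr6:52240855-52241104, minus strand), a posterior gene used in blood progenitors and the uterus, and Hoxb4 (chr11:96318017-96318266, plus strand), known for expanding blood stem cells.
Hoxa10: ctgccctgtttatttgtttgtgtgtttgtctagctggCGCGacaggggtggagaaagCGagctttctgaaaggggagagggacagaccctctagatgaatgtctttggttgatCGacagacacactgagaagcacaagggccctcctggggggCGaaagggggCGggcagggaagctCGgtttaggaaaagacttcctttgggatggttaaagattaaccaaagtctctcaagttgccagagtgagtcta
Hoxb4: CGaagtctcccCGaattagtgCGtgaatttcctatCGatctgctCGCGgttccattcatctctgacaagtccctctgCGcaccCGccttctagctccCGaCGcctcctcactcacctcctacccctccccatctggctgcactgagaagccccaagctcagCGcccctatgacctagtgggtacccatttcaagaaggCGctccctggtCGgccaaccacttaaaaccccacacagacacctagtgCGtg
The 2 starts with the most CpG are those of Hoxa13 (chr6:52260881-52261130, minus strand) and Hoxd13 (chr2:74667975-74668224, plus strand), both genes of the digits and the hind end of the body.
Hoxa13: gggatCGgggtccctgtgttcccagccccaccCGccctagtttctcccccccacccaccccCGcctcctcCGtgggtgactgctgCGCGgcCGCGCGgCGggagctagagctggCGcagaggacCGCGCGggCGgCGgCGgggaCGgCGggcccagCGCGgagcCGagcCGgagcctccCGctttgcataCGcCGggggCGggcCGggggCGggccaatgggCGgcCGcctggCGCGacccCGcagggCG
Hoxd13: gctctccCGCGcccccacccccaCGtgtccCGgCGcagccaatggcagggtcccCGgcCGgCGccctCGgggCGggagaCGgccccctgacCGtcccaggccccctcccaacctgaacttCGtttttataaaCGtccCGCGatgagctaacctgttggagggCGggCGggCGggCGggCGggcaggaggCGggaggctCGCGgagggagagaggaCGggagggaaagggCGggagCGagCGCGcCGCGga

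The listed Hox starts had from 4 to 45 CpG in the promoter window and were alike in having no region over it. In the 300-base windows, Hoxa10 had 12 CpG and Hoxb4 14, with regions 85 and 136 bp away. Hoxa13 had 45 and Hoxd13 37, with the nearest regions 1482 and 4605 bp away. The 24 Hox promoters had a median of 14.5 CpG and 57.6% G or C, and all 21263 promoters had 13 CpG and 56.3%. Among all protein-coding starts the share with a region within 1 kb rose with CpG content, from 10.5% at 0 to 4 CpG and 42.3% at 5 to 13 CpG to 79.9% at 14 to 24 CpG and 83.1% at 25 CpG or more. The Hox starts in these 4 classes had 0 of 3, 1 of 8, 3 of 7 and 0 of 6. At 14 CpG or more, 3 of 13 Hox starts had a region within 1 kb (23.1%), as had 5 of 26 starts of other developmental homeobox genes (19.2%) and 81.5% of all starts in that range. The 6 Hox starts with 25 CpG or more and no region within 1 kb were those of Hoxa5, Hoxa6, Hoxa13, Hoxd1, Hoxd13 and the second start of Hoxd11.

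**Figure D2:**
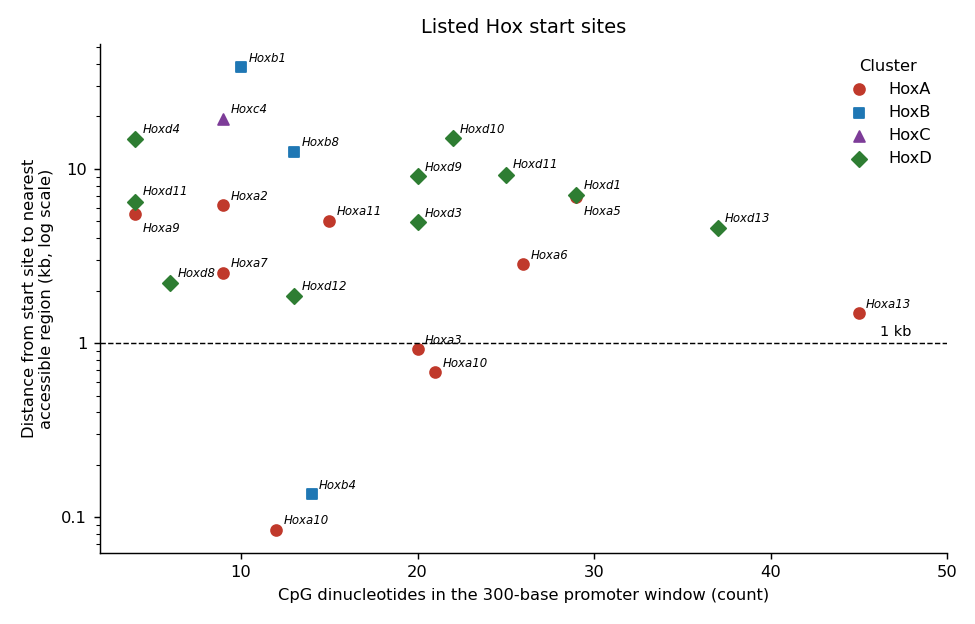
The 24 listed Hox start sites, with the CpG count of the 300-base promoter window on the x axis and the distance to the nearest accessible region in kb on a logarithmic y axis; each point is a start, and shape and colour give the cluster. The 4 starts below the dashed line at 1 kb have 12 to 21 CpG, and the 2 starts with the most CpG, 37 and 45, lie above it.

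The promoters carried common core elements at the following rates. The letters CCAAT, the core of the NF-Y site, occurred on either strand in 15 of the 24 Hox promoters (62.5%) and in 38.2% of all promoters of the same length. The letters TATAAA, the core of the TATA box, occurred on either strand in 4 of 24 (16.7%) and in 12.6% of all. The 2 motifs can overlap by shared letters, and each was counted on its own. A match says only that these letters are present in the window.

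HoxA, whose genes include Hoxa9 and Hoxa10 of blood progenitors, held 8 of the 19 regions that lay between the first and last Hox gene of a cluster. It had 7.58 regions per 100 kb over its 105.5 kb, and chromosome 6 as a whole had 2.64. HoxD had 4 regions in 96.9 kb, 4.13 per 100 kb (chromosome 2 had 2.73). HoxB had 5 in 173.9 kb, 2.87 per 100 kb (chromosome 11 had 3.26). HoxC had 2 in 115.7 kb, 1.73 per 100 kb (chromosome 15 had 2.78). Together the clusters had 3.86 per 100 kb, and 2.85 without HoxA. Windows of 100 kb along the autosomes had a median of 2 regions, with quartiles of 1 and 4, and 5.56% of 24397 windows had 8 or more. The 8 HoxA regions run over 101.3 kb, so no window of that size can hold all of them. HoxA thus stood at the high end of such windows and the other 3 clusters within or near their quartiles. No test was made between clusters.

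Of the 11 Hoxa genes, 4 had a region at an end (36.4%), beside 52.6% of all protein-coding genes. Hoxa3, which shapes the thymus and the pharyngeal arches, had a region of 648 bp at chr6:52211499-52212146, 921 bp inside its start, which also lay in the long noncoding RNA gene Hoxaas3. Hoxa4 had a region of 559 bp at chr6:52191905-52192463, 202 bp beyond its higher-coordinate end. That region lies inside the 44009 bp gene model of Hoxa3 and counts for both genes. Hoxa10 had 2 regions, of 463 bp at chr6:52240307-52240769 and of 196 bp at chr6:52234065-52234260. Hoxa13 had 1 of 353 bp inside the gene at chr6:52259046-52259398, 193 bp from its lower-coordinate end, which is its 3′ end.

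Hoxa2, Hoxa5, Hoxa6, Hoxa7, Hoxa9 and Hoxa11 had none. Hoxa9, a regulator of blood stem cells and a gene kept active in leukaemias with MLL fusions, lay 1241 bp from a region of 752 bp at chr6:52221105-52221856. This region, in the space between Hoxa7 and Hoxa9 and 2532 bp from Hoxa7, was the widest inside any of the 4 clusters. A region of 195 bp at chr6:52254177-52254371 lay between Hoxa11 and Hoxa13, 4.48 kb from Hoxa13.

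In HoxB the 5 regions lay within 24.3 kb, from Hoxb6 to Hoxb4. Hoxb4 had a region of 400 bp at chr11:96318403-96318802, which lies also in the 40830 bp gene model of Hoxb3. Hoxb5, a gene used in mouse blood stem cells, had one of 208 bp at chr11:96303010-96303217, 295 bp before its lower-coordinate end. Hoxb6 had one of 389 bp inside the gene at chr11:96294478-96294866. Hoxb3 had no region at an end, and its body held, beside the one at Hoxb4, a pair of regions 52 bp apart, of 202 bp at chr11:96311243-96311444 and 373 bp at chr11:96311497-96311869. The other 6 genes had none. The first 100.2 kb of the cluster, with Hoxb13, Hoxb9, Hoxb8 and Hoxb7, and the last 49.5 kb, with Hoxb2 and Hoxb1, held no region. Hoxb13, a gene of the prostate and hindgut that stands apart from the rest of the cluster, was the Hox gene farthest from a region, at 97.9 kb.

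HoxC had the fewest regions, and both were narrow. Hoxc6 had 1 of 161 bp at chr15:102998732-102998892, 506 bp inside its lower-coordinate end. Hoxc9 had 1 of 207 bp at chr15:102978561-102978767, inside the gene and 1529 bp from its end. The other 7 genes had none, among them Hoxc4, which is known to act in antibody switching in B cells. Hoxc4 lay 16.9 kb from the nearest region. The first 57.4 kb of the cluster, with Hoxc13, Hoxc12, Hoxc11 and Hoxc10, held no region.

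HoxD, a cluster known for its part in limb and digit development, had a region at an end of 2 of 9 genes (22.2%), beside 52.6% of all. Hoxd8 had one of 213 bp at chr2:74706833-74707045, inside the gene and 888 bp from its higher-coordinate end, which is its 3′ end. Hoxd3 had one of 599 bp at chr2:74749250-74749848, 979 bp beyond its 3′ end; it overlapped the long noncoding RNA gene Haglr, which lies in the space between Hoxd3 and Hoxd1. A second region of 309 bp lay in Haglr at chr2:74755582-74755890, 7.09 kb from Hoxd1. A region of 310 bp at chr2:74672830-74673139 lay between Hoxd13 and Hoxd12, 1227 and 1874 bp from them. Hoxd1, Hoxd4 and Hoxd9 to Hoxd13 had none in the gene or at an end.

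By paralogue number, the order of the shares depended on the window at gene ends. With 1 kb, 6 of 12 genes of groups 1 to 4 had a region in the gene or at an end, as did 4 of 11 in groups 5 to 8 and 3 of 16 in groups 9 to 13, beside 67.6% of all protein-coding genes. At an end these were 4 of 12, 3 of 11 and 2 of 16, beside 52.6% of all. With 2 kb the counts at an end were 5 of 12, 4 of 11 and 7 of 16, beside 57.8% of all, so the share was highest in groups 9 to 13. With 500 bp they were 2 of 12, 1 of 11 and 2 of 16, beside 48.8% of all. With the 1 kb window, group 3 was the only group of the 13 in which every gene had a region, Hoxa3 and Hoxd3 at an end and Hoxb3 in the body; these are also the 3 longest Hox genes, of 36279 to 44009 bp. In group 4, Hoxa4 and Hoxb4 had one at an end and Hoxc4 and Hoxd4 had none. None of the genes in groups 2, 7, 11 and 12 had one. In groups 9 to 13 the genes with a region were Hoxa10, Hoxa13 and Hoxc9. These counts are small and were not tested.

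**Figure D3:**
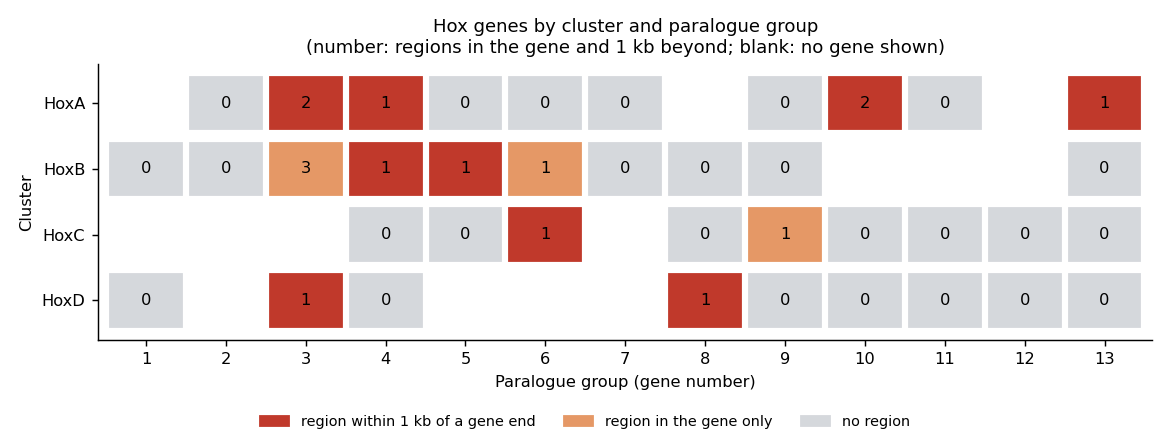
Hox genes by cluster (rows) and paralogue group (columns); the colour gives whether a region lay within 1 kb of an end, only in the gene or neither, and the number counts regions in the gene and the 1 kb beyond each end; a blank cell has no gene, or a gene that is not shown. Only group 3 has a region in every cluster that holds the gene, and in groups 9 to 13 the genes with one are Hoxa10, Hoxa13 and Hoxc9.

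The limit of 1 kb falls among several Hox genes. Just inside it were Hoxd3, with a region 979 bp from an end, Hoxa3 at 921 bp and Hoxd8 at 888 bp. Among those just outside it were Hoxd13 at 1227 bp, Hoxa9 at 1241 bp, Hoxa11 at 1336 bp, Hoxb6 at 1441 bp, Hoxc9 at 1529 bp and Hoxd12 at 1874 bp. The 26 genes with no region in the gene or at an end lay at a median of 7.0 kb from the nearest one, with a range of 1.23 to 97.9 kb. The 7096 protein-coding genes in the same class lay at a median of 22.2 kb. In HoxA these distances were at most 6.91 kb, for Hoxa5, and in HoxD at most 14.9 kb, for Hoxd4.

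Regions at Hox gene ends were narrower in this list than regions at gene ends in general. The 19 regions had a median width of 353 bp (range 161 to 752 bp), and all regions on assembled chromosomes had a median of 294 bp. The 9 regions within 1 kb of a Hox gene end had a median of 400 bp, and the 11867 regions at an end of any protein-coding gene had a median of 715 bp. These sets were not matched for position relative to the start. No region overlapped a listed Hox promoter, and 46.8% of all listed promoters had one. The part of position in the widths was not tested. HoxA held 4 of the 5 regions wider than 535 bp, the upper quartile of all regions, and the other was the region at Hoxd3. Without HoxA the median was 309 bp over 11 regions.

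**Figure D4:**
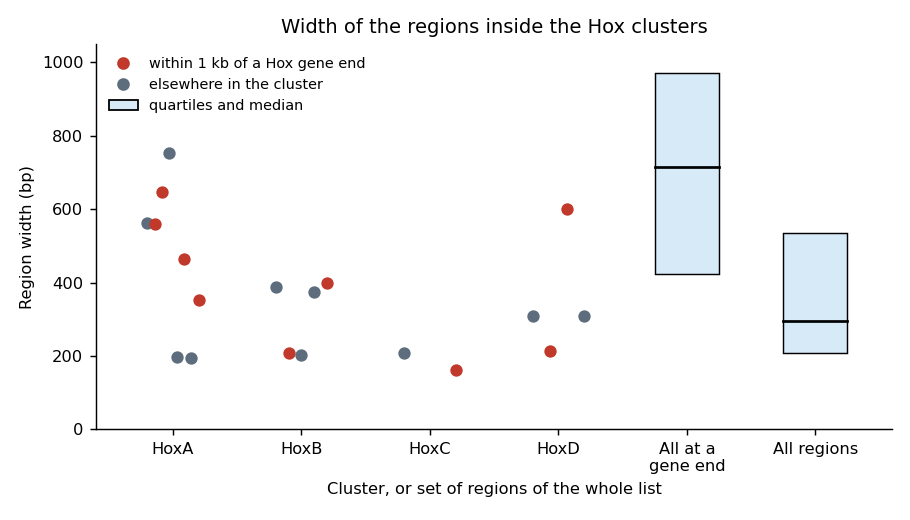
Width in bp of each of the 19 regions inside the Hox clusters (points, red where within 1 kb of a Hox gene end), beside the quartiles (boxes) and medians (lines) of all regions at a protein-coding gene end and of all regions. The Hox regions run up to 752 bp, and all 9 at Hox gene ends lie below the 715 bp median of all regions at gene ends, the widest of them at 648 bp.

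Within the clusters, regions were spread over gene ends, gene bodies and the space between genes. Of the 19, 9 lay within 1 kb of a Hox gene end (47.4%), and 18.5% of all regions in the list lay that close to an end of a protein-coding gene. The 1 kb windows around Hox gene ends cover 28.7% of the 492.1 kb of the clusters. A further 6 regions lay in a Hox gene away from its ends, where such sequence covers 38.7%, and 4 lay between genes, which covers 32.7%. The 4 between genes were those beside Hoxa9, between Hoxa11 and Hoxa13, between Hoxd13 and Hoxd12, and in Haglr. Sites of CTCF, an architectural protein, are known in several spaces between Hox genes; its binding was not analysed here.

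The 50 kb flanks held 5 regions, 3 beside HoxA, 1 beside HoxB, 1 beside HoxC and 0 beside HoxD. The widest, 1769 bp at chr6:52115696-52117464, lay in the lower-coordinate flank of HoxA and was wider than 99.7% of all regions. Another region of 299 bp at chr6:52110673-52110971 lay in Halr1, a long noncoding RNA gene known to act on Hoxa genes in mouse embryonic stem cells. The flank of HoxC held a region of 271 bp at chr15:103053755-103054025 in the long noncoding RNA gene Gm30528. The protein-coding neighbours in the flanks, Evx2 beside Hoxd13 and Ttll6 beside Hoxb13, had no region.

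Long noncoding RNA genes of the clusters had regions about as often as such genes elsewhere. Of the 29 in the clusters and flanks, 6 had a region within 1 kb of an end, and 24.6% of 12727 long noncoding RNA genes did, so the count is near the background. The 6 were Halr1, Hotairm1, Hotairm2, LOC115490409, Gm29905 and Haglr. Hotair, a HoxC transcript known in human cells for its link to Polycomb, was 30.6 kb from a region, and Hottip, which lies past Hoxa13 and is known in human cells to bind WDR5, a partner of MLL, was 3.38 kb from one.

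The clusters also hold 6 microRNA genes, and their mature 5p strands fall into families by the seed, bases 2 to 8, which is given in capitals because it chooses the target; miR-196 is known in mouse to cut the Hoxb8 message. The sequences are those of RefSeq, 5′ to 3′.
miR-10a-5p (HoxB): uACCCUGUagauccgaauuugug
miR-10b-5p (HoxD): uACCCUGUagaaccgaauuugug
miR-196a-5p (HoxB and HoxC): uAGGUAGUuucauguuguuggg
miR-196b-5p (HoxA): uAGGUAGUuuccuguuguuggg
miR-615-5p (HoxC): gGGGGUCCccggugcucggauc
The miR-10 pair shares the seed ACCCUGU and the miR-196 group the seed AGGUAGU. None of the 6 genes had a region within 1 kb, and 13.8% of 1228 microRNA genes did. Mir10a lay 1.13 kb from the region at Hoxb4, Mir196b 3.9 kb and Mir196a-2 5.13 kb from one, and Mir615, Mir10b and Mir196a-1 lay 16, 19 and 29.2 kb away. The distance is to the hairpin, whose transcript may begin elsewhere.

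Among genes that act on Hox genes, the Polycomb list had regions more often than all protein-coding genes, of which 52.6% had one at an end and 67.6% at an end or inside. Of 16 Polycomb genes, 14 had a region at an end (87.5%) and all had one at an end or inside. The contrast was smaller among listed starts with 14 CpG or more. There 13 of 14 Polycomb starts had a region within 1 kb (92.9%), beside 81.5% of all starts in that range. Jarid2, a subunit that guides Polycomb repressive complex 2, had 12 regions and Phc2 had 6; Bmi1 and Cbx7 had regions only inside the gene, 1 and 4. Of 10 upstream activators, 6 had a region at an end and 7 had one at an end or inside, shares near those of all genes. Kmt2a had 7 regions and Dot1l, a histone H3 methyltransferase, had 4. Ash2l, a core partner of MLL enzymes, had 1 inside the gene. The 3 activators without any were the caudal homeobox genes Cdx1, Cdx2 and Cdx4, which act in the gut and the early embryo.

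Of 9 cofactors of the TALE class, which bind DNA together with Hox proteins, 6 had a region at an end and the other 3, Meis1, Meis2 and Meis3, had regions only inside. Meis1, a partner of Hoxa9 in blood progenitors and leukaemia, had 6 regions. Of 46 other developmental homeobox genes, 6 had a region at an end (13%), 6 only inside and 34 (73.9%) had none. Lhx2, which acts in the eye and forebrain, had 4 regions, and Nkx2-2, which acts in the spinal cord and pancreas, had 2 inside the gene. Alx1, a gene of the face, had 1 inside the gene. The share of all protein-coding genes with a region at an end was 52.6%. These lists differ in gene length and promoter CpG from the Hox genes, whose part in the shares was not tested.

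**Figure D5:**
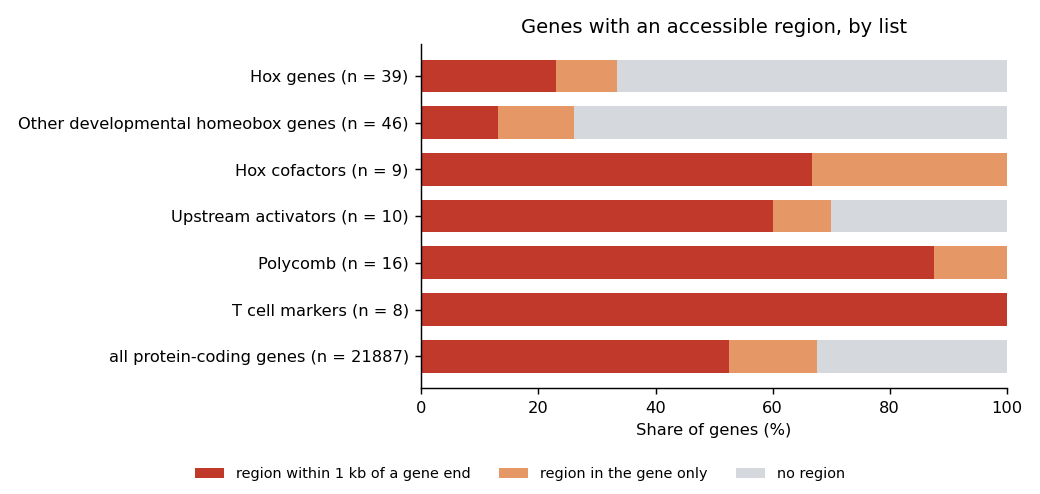
Share of genes (%) in each list with an accessible region within 1 kb of a gene end, only in the gene, or neither; n is the number of genes. The Hox genes have a region at an end for 23.1%, other developmental homeobox genes for 13%, Polycomb genes for 87.5% and all protein-coding genes for 52.6%.

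The labelled cell type was checked against marker genes. All 8 T cell markers had a region at an end, among them Cd3e and Cd4, beside 52.6% of all protein-coding genes. Of 4 B cell markers 0 had one at an end, of 2 natural killer cell markers 0, of 4 macrophage markers 1 (Csf1r), and of 2 CD8 T cell markers 1 (Cd8b1). Some of these markers had regions only inside the gene: the B cell factor Pax5 had 5, the macrophage marker Adgre1 had 1 and Cd8a had 1. Of 5 markers of blood stem and progenitor cells, in which Hoxa and Hoxb genes are used, 0 had a region at an end. Mecom, Flt3 and Kit had 10, 3 and 2 inside the gene, and 15.0% of all protein-coding genes had regions only there. The 5 markers have a median length of 69700 bp, beside 17200 bp for all protein-coding genes. The part of gene length in these counts was not tested. The share of other cells behind any single Hox region was not tested.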

How the data were processed

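ATAC-seq libraries (2 Ddx55 knockout, 2 wild type) were analysed through the one list the authors deposited. Its 3 columns, chromosome, start and end of each region, hold positions only; no count or score per library is included, so samples could not be compared. Per the submitters' processing notes, the tools were MACS3 3.0.0b1, SAMtools 1.15.1, Bowtie2 and fastp 0.12.4, with mm10; the sources used here do not give their settings, duplicate handling, cut-site shift, peak threshold or how libraries were joined. Starts were converted to 1-based positions. Genes came from a RefSeq table of GRCm38.p6; strands and start sites from its promoter table. Overlap needed at least 1 bp. Alternatives were other windows, flanks, region middles, wider or merged regions, and start sites only. Overlap counts were tested on simulated data against direct counting. Named genes were all Hox genes, other genes of the clusters, and up to 4 per list (most regions, or none at an end, by alphabet); further ones were chosen after their values were seen. The members, lists and comparisons were chosen with earlier results of these data known. Values of some single genes are not reported here. Promoter CpG classes were added after seeing the data. Python 3.11.15, numpy 2.4.6 and pandas 2.3.3 were used.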

Additional observations from a re-analysis of the deposited data

How the results depend on the processing

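The count of Hox genes with a region at an end was 9 of 39, and it moved with the window, to 5 at 500 bp and 16 at 2 kb, and to 3 of 22 genes when only listed start sites counted. Using the middle of a region gave 7, regions of at least 300 bp gave 6, and merging regions under 500 bp apart gave 9; in each setting the share stayed below that of all protein-coding genes. Across these settings the call at an end changed for 12 of the 39 genes under at least 1 of the 5 settings applied to every gene. The order of the shares over paralogue groups 1 to 4, 5 to 8 and 9 to 13 changed with the window; this check was chosen after seeing the data. With regions of at least 300 bp, the number inside the clusters was 12 in place of 19, and that with 50 kb flanks was 13 in place of 24; HoxC then held 0. The counts of the 4 lists of related genes stayed within 1.5 times at 500 bp and 2 kb. No paired analysis was possible because the list carries no value per library; for the same reason no library could be left out. Depth is unknown and limits what the absence of a region can show.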
